A study of Homo sapiens with 6 samples.

Results

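The respiratory chain of mitochondria is made of complex I (NADH dehydrogenase), complex II (succinate dehydrogenase), complex III (the cytochrome bc1 complex) and complex IV (cytochrome c oxidase). Its transcripts were followed in PC3, an established cell line from a human prostate cancer, after depletion of VEGF-C or of NRP-2. Members were the probe sets annotated to a single gene whose symbol starts with NDUFA, NDUFB, NDUFC, NDUFS, NDUFV, UQCR, COX4, COX5, COX6, COX7 or COX8, or is SDHA, SDHB, SDHC, SDHD or CYC1. This rule, which uses no measured value, gave 135 probe sets of 72 genes, of 19775 genes named on the array. Because symbols starting with NDUFA include NDUFAF1 to NDUFAF8, 8 complex I assembly factors were among them, and 4 further symbols were antisense, divergent or pseudogene transcripts. A further 12 probe sets were shared with another gene (for NDUFS5, UQCRH, NDUFS8 and NDUFC2 among others) and were not used. NDUFS8, SDHB and UQCRFS1, core subunits of complexes I, II and III, were not analysed here.

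PC3 cells had received scrambled siRNA (2 arrays), siRNA against VEGF-C (2 arrays) or siRNA against NRP-2 (2 arrays). All were collected 72 h after transfection and grown in RPMI medium with 10% fetal bovine serum. Both targeting siRNAs were described as SmartPool cocktails, but the NRP-2 siRNA came from Santa Cruz Biotechnology and the VEGF-C siRNA from Dharmacon, so target and supplier cannot be told apart. VEGF-C is a growth factor and NRP-2, neuropilin-2, one of its co-receptors; autophagy is named in the series title, and mitochondria are among the cell contents that autophagy degrades. The comparisons are of each depletion with scrambled siRNA and of one depletion with the other.

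Complex I takes electrons from NADH and complex II takes them from succinate, both passing them to ubiquinone. Complex III hands them on to cytochrome c and complex IV to oxygen, and complexes I, III and IV pump protons that ATP synthase, complex V, uses to make ATP. Nearly all subunits are encoded in the nucleus, and a few core subunits of complexes I, III and IV are encoded in mitochondrial DNA. The nuclear factors NRF1, GABP (an ETS factor) and the oestrogen-related receptors (ERR) are known to drive many of the nuclear genes.

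The deposited log2 values of all 6 arrays had medians within 0.07 of each other. VEGFC stood at log2 11.81 and 11.80 on the scrambled arrays against 8.46 and 7.27 with its siRNA, and NRP2 at 4.77 and 4.92 against 3.41 and 2.81 with its own. Neither targeted gene passed the threshold used below (limma's adjusted p = 0.204 and 0.213), so a difference of similar size could also miss it. Epithelial markers (6 of 7 named on the array) had means of log2 12.04 to 14.65, while 5 of 7 fibroblast, 3 of 5 endothelial and 3 of 4 named leukocyte markers lay under log2 4. The arrays of a group are listed as separate samples but not as separate cultures, and the p-values therefore reflect only how far these samples differ, which can be technical. In RNA of whole cultures, fewer cells of a type and less RNA per cell cannot be told apart.

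Of the 72 member genes, 64 averaged at least log2 4 across the 6 arrays and were tested. These were all 33 complex I subunits found, 3 of complex II, 7 of complex III, 12 of 17 of complex IV, all 8 assembly factors and the antisense transcript NDUFB2-AS1. Just outside the limit lay NDUFV1-DT (mean 3.67) and a second NDUFB1 probe set (3.99), and just inside it another COX4I1 probe set (4.80) and NDUFB2-AS1 (4.97). A gene is represented below by its brightest probe set unless another is named. The 55 subunit genes tested are described as a group.

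With VEGF-C siRNA the nuclear-encoded subunits stayed close to the scrambled arrays. Of the 55 subunit genes, 27 lay above 0 and 28 below it in the log2 difference of means, with a median of -0.004, equal to that of all 11131 genes tested (-0.004, 49.3% above 0). Differences ran from -0.37 for NDUFA5 to 0.47 for CYC1. No subunit passed an adjusted p of 0.05 in limma (Benjamini-Hochberg over all genes; lowest adjusted p = 0.251, for CYC1), in a comparison in which 0% of all genes passed. At an unadjusted p under 0.05, 1 subunit was higher (CYC1) and 1 lower (NDUFB1), beside 6.95% of all genes higher and 7.80% lower. Both VEGF-C arrays lay above both scrambled arrays for 16 subunits and below them for 10, against 26.8% and 26.6% of all genes.

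With NRP-2 siRNA most subunits lay slightly above the scrambled arrays. Here 44 of 55 were above 0 and 11 below, with a median of 0.124 against 0.012 for all genes (51.8% above 0), and a range from -0.29 for NDUFA5 to 0.66 for NDUFA7. None passed the adjusted threshold (limma, lowest adjusted p = 0.289, for NDUFA7), and 0% of all genes passed it. At an unadjusted p under 0.05, 2 subunits were higher (NDUFA7 and NDUFB6) and 0 lower, beside 6.43% and 6.85% of all genes. Both NRP-2 arrays lay above both scrambled arrays for 22 subunits and below them for 5, against 25.3% and 24.4% of all genes. Both comparisons use the same scrambled arrays, so their values are not independent. All 4 arrays of the depleted cells lay above both scrambled arrays for 10 of the 55 subunits, NDUFA7 and CYC1 among them. They lay below both for 3. Of all genes, 11% and 11.2% did so.

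**Figure D1:**
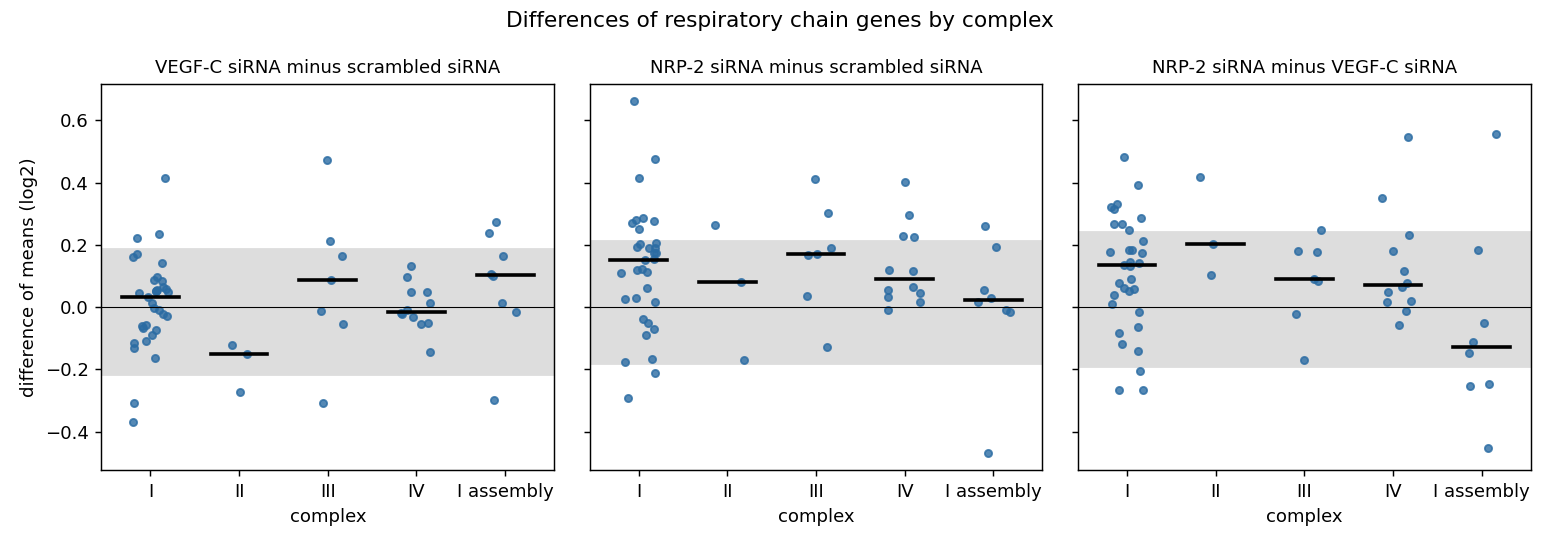
Each point is a gene and the vertical axis is its difference of means in log2 units for the comparison named above the panel; genes are grouped on the horizontal axis by complex, with the 8 complex I assembly factors apart, black bars are medians and the grey band is the range between the lower and upper quartiles of all 11131 genes. With NRP-2 siRNA the medians of complexes I, II, III and IV lie at 0.150, 0.081, 0.170 and 0.090; with VEGF-C siRNA they lie at 0.031, -0.152, 0.086 and -0.015.

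The shift with NRP-2 siRNA rested on 1 of its arrays. NRP-2 array 1 exceeded array 2 for 53 of 55 subunits, with a median difference of 0.276, whereas all genes were split evenly between these arrays (5575 higher on array 1 and 5555 on array 2). The median deviation of the subunits from their means over 6 arrays was 0.185 on NRP-2 array 1 and -0.031 on NRP-2 array 2, beside -0.010 and -0.071 on the scrambled arrays and -0.086 and 0.018 on the VEGF-C arrays. Without NRP-2 array 1, 30 of 55 subunits lay above 0 with a median of 0.012, and without NRP-2 array 2, 48 did, with a median of 0.235. The order was kept in each complex: NRP-2 array 1 was the higher for 31 of 33 subunits of complex I, 3 of 3 of complex II, 7 of 7 of complex III and 12 of 12 of complex IV.

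**Figure D2:**
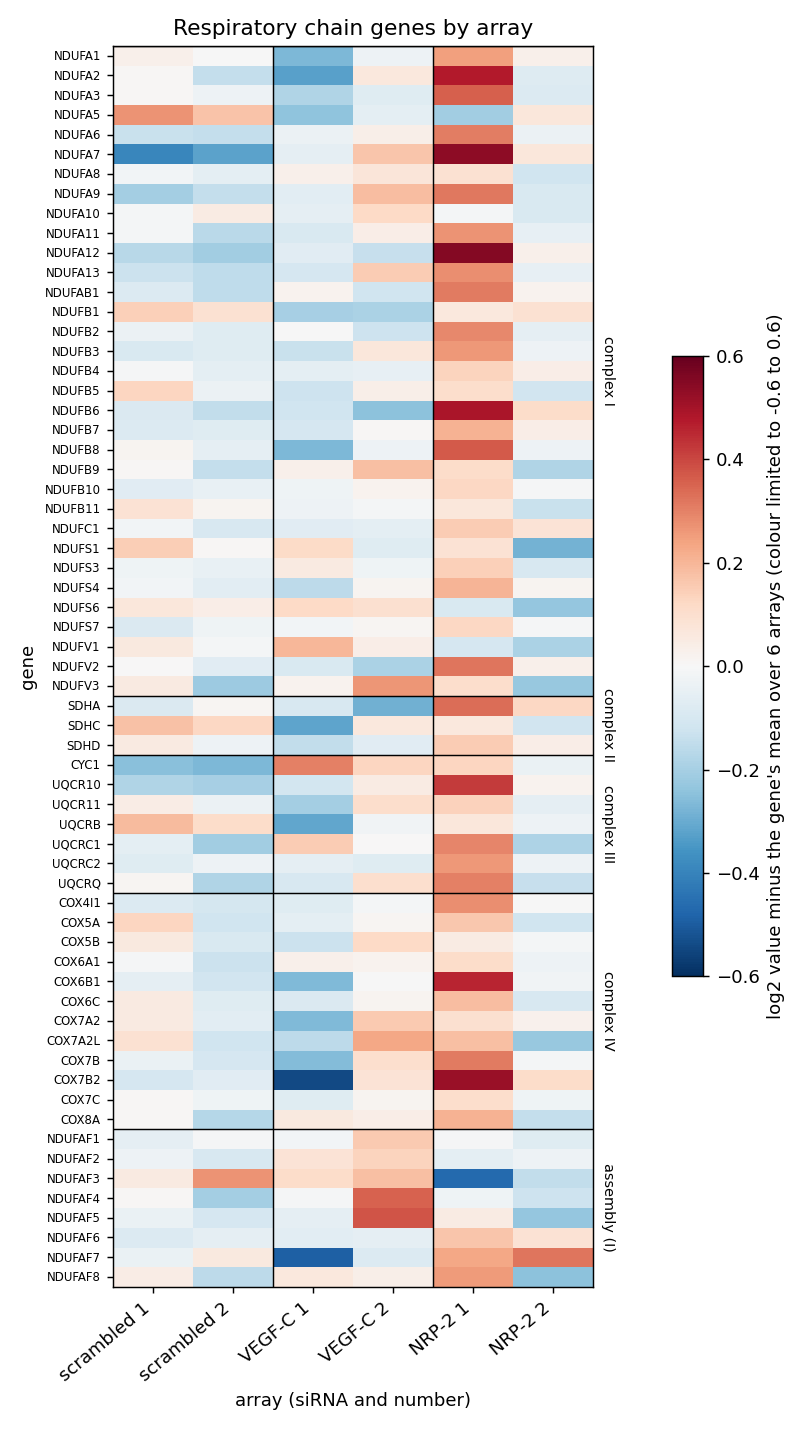
Rows are the 55 subunit genes and 8 assembly factors, ordered by complex, and columns are the 6 arrays; colour is the log2 value minus the gene's mean over the 6 arrays, red above and blue below, limited to -0.6 to 0.6. The column of NRP-2 array 1 is mostly red, with a subunit median of 0.185, and that of NRP-2 array 2 is mostly pale, with a median of -0.031.

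The arrays within the other groups also differed in a common direction, by less. Scrambled array 1 exceeded array 2 for 45 of 55 subunits (median difference 0.055), and VEGF-C array 1 for 15 of 55 (median -0.105). The 29 tested genes of the G2 phase and mitosis, a readout of how many cells divide, had medians of 1.322 and 1.023 above scrambled with VEGF-C and NRP-2 siRNA, with all 29 above 0 in both comparisons. They also differed between the arrays of a group: the mean of the 30 genes of this list named on the array, 1 of them under log2 4, was log2 9.99 and 8.33 on the scrambled arrays, 10.90 and 10.11 for VEGF-C siRNA and 10.70 and 9.68 for NRP-2 siRNA. All 29 tested genes were higher on array 1 in each group, so the mitotic genes and the subunits were ordered alike in the scrambled and NRP-2 groups and oppositely in the VEGF-C group. The part of cell division in the subunit values was not tested.

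Complex I holds its NADH-oxidising and iron-sulphur core in the matrix arm. NDUFV1, which carries the flavin that takes electrons from NADH, stood at log2 11.52 and 11.45 for scrambled siRNA, 11.66 and 11.50 for VEGF-C siRNA and 11.36 and 11.27 for NRP-2 siRNA. The NRP-2 arrays were the lowest of the 6 for NDUFV1 (difference from scrambled -0.17, SE 0.13, limma's adjusted p = 0.570). NDUFV2, its iron-sulphur partner, stood at 13.33 and 13.26, 13.24 and 13.14, and 13.65 and 13.36 in the same order of groups. For NDUFV2 the VEGF-C arrays were the lowest (difference -0.11, SE 0.15, adjusted p = 0.763) and the NRP-2 arrays the highest (0.21, SE 0.15, adjusted p = 0.551). NDUFS1, the largest iron-sulphur subunit, differed by -0.06 for VEGF-C siRNA and -0.18 for NRP-2 siRNA, and the core subunits NDUFS3 and NDUFS7 by 0.05 and 0.05 for VEGF-C siRNA and 0.06 and 0.11 for NRP-2 siRNA. One of the 5 tested NDUFS1 probe sets, at a lower level, gave -0.54 with VEGF-C siRNA (unadjusted p = 0.0363, adjusted p = 0.337 over all probe sets), while the other 4 gave -0.20 to -0.03.

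Among the accessory subunits, which surround the core and stabilise it, NDUFA7 had the largest difference. It stood at log2 11.72 and 11.79 for scrambled siRNA, 12.06 and 12.28 for VEGF-C siRNA and 12.65 and 12.18 for NRP-2 siRNA. All 4 arrays of the depleted cells lay above both scrambled arrays, by 0.42 with VEGF-C siRNA (1.33-fold, SE 0.19, limma's unadjusted p = 0.079, adjusted p = 0.388) and by 0.66 with NRP-2 siRNA (1.58-fold, SE 0.19, unadjusted p = 0.016, adjusted p = 0.289). A second, dimmer NDUFA7 probe set gave 0.29 and 0.07. NDUFB6, of the membrane arm, stood at 13.09 and 13.03, 13.06 and 12.93, and 13.67 and 13.29. Its NRP-2 arrays lay above the other 4 (0.42 against scrambled, SE 0.16, unadjusted p = 0.048, adjusted p = 0.373), with array 1 well above array 2. NDUFA12, added late in assembly, had the next-largest difference with NRP-2 siRNA in complex I (0.48, SE 0.19, adjusted p = 0.377), from 13.24 and 13.20 to 13.96 and 13.44.

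By series, 11 of 13 NDUFA subunits lay above 0 with NRP-2 siRNA (median 0.252), 8 of 11 NDUFB (0.120), 3 of 5 NDUFS (0.060) and 2 of 3 NDUFV (0.016); with VEGF-C siRNA the medians were 0.066, -0.023, 0.049 and 0.098.

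Some accessory subunits lay below the scrambled arrays. NDUFB1, also of the membrane arm, stood at log2 12.95 and 12.90 for scrambled siRNA, 12.61 and 12.62 for VEGF-C siRNA and 12.87 and 12.90 for NRP-2 siRNA. The VEGF-C arrays stood apart from the other 4 and differed from scrambled by -0.31 (1.24-fold lower, SE 0.11, limma's unadjusted p = 0.037, adjusted p = 0.319). NDUFA5 stood at 13.07 and 12.97, 12.56 and 12.74, and 12.59 and 12.87, so that both depletions lay below scrambled, by -0.37 (adjusted p = 0.351) and -0.29 (adjusted p = 0.451). NDUFS6, a zinc-binding accessory subunit, stood at 13.12 and 13.09, 13.17 and 13.15, and 12.96 and 12.82. Its values with VEGF-C siRNA were just above scrambled (0.05) and those with NRP-2 siRNA below (-0.21, SE 0.12, adjusted p = 0.473).

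**Figure D3:**
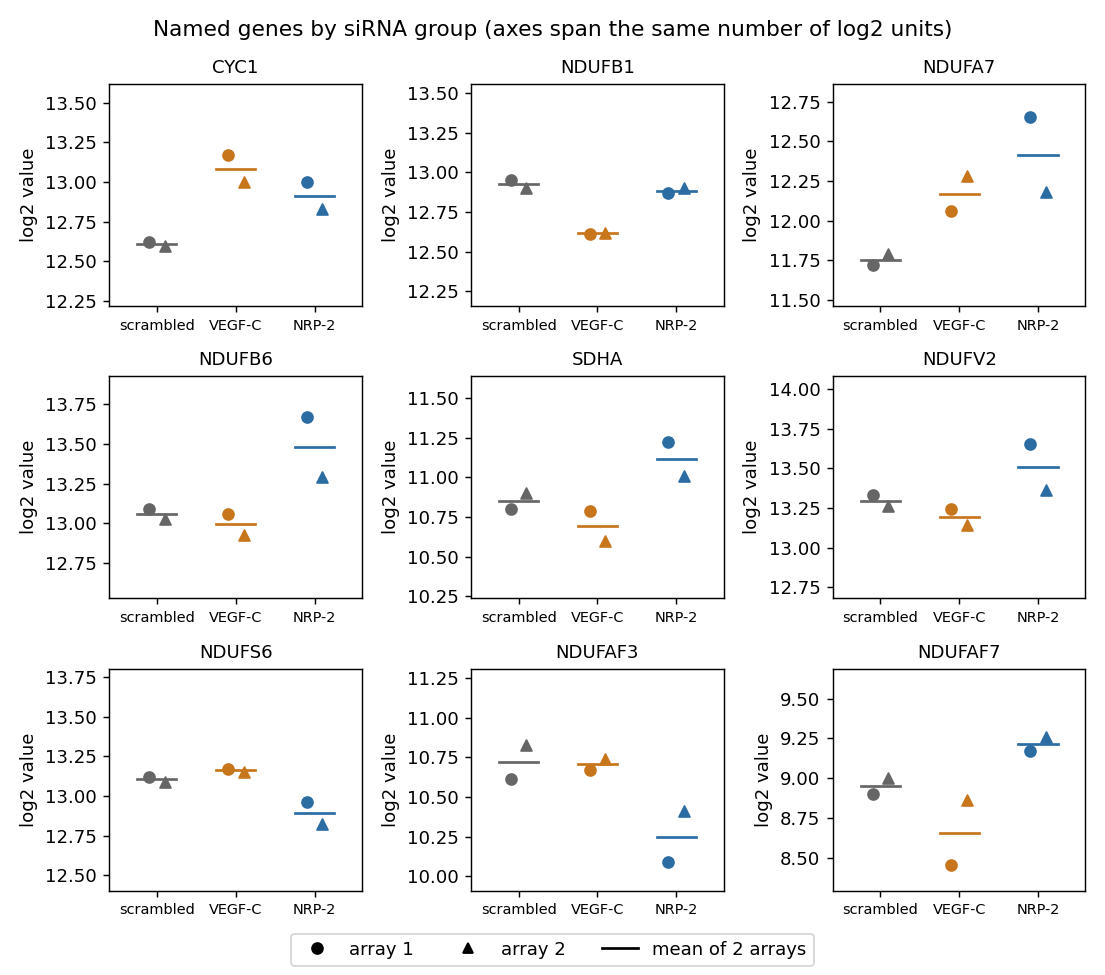
Log2 values of 9 named genes (vertical axes, each spanning the same number of log2 units) by siRNA group (horizontal axis); circles are array 1, triangles array 2 and bars the mean of the 2 arrays. CYC1 and NDUFA7 lie above scrambled in both depleted groups, NDUFB1 is lowest with VEGF-C siRNA (12.61 and 12.62), and NDUFAF3 is lowest with NRP-2 siRNA (10.09 and 10.41).

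The assembly factors of complex I, which help to build it and are not part of the finished enzyme, lay on both sides of scrambled. Their median was 0.104 for VEGF-C siRNA and 0.023 for NRP-2 siRNA. With NRP-2 siRNA 6 of 8 were lower than with VEGF-C siRNA, beside 47.3% of all genes. NDUFAF3, which acts with NDUFAF4 on the module that binds ubiquinone, stood at log2 10.61 and 10.83 for scrambled siRNA, 10.67 and 10.74 for VEGF-C siRNA and 10.09 and 10.41 for NRP-2 siRNA. It was lowest on the NRP-2 arrays, by -0.47 against scrambled (1.38-fold, SE 0.16, limma's unadjusted p = 0.031, adjusted p = 0.331) and -0.45 against VEGF-C siRNA (adjusted p = 0.243). NDUFAF7, a methyltransferase needed for complex I assembly, stood at 8.90 and 9.00, 8.45 and 8.86, and 9.17 and 9.26. It was lower than scrambled with VEGF-C siRNA (-0.30, SE 0.17) and higher with NRP-2 siRNA (0.26, SE 0.17), and its other 2 probe sets had the same signs (-0.37 and -0.10, then 0.12 and 0.25). NDUFAF4 differed by 0.28 with VEGF-C siRNA at its brightest probe set and by 0.68 at its dimmer one (unadjusted p = 0.00981, adjusted p = 0.261 over all probe sets); with NRP-2 siRNA the same probe sets gave 0.03 and 0.49 (limma's unadjusted p = 0.873 and 0.0352, adjusted p = 0.318 for the second over all probe sets).

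Complex II, which also belongs to the citric acid cycle, had every tested subunit below scrambled with VEGF-C siRNA: SDHA, SDHC and SDHD, with a median of -0.152. SDHA, the flavoprotein that oxidises succinate, stood at log2 10.80 and 10.90 for scrambled siRNA, 10.79 and 10.60 for VEGF-C siRNA and 11.22 and 11.01 for NRP-2 siRNA. Its groups did not overlap, with differences of -0.15 (SE 0.14, limma's adjusted p = 0.645) and 0.27 (SE 0.14, adjusted p = 0.464) against scrambled. SDHC, a membrane anchor, stood at 12.89 and 12.84, 12.40 and 12.78, and 12.78 and 12.60, and all 6 of its tested probe sets gave differences below 0 with VEGF-C siRNA, from -0.65 to -0.03. SDHD, the other anchor, differed by -0.12 for VEGF-C siRNA and 0.08 for NRP-2 siRNA. At their brightest probe sets, both anchors and SDHA differed by less than 2 standard errors in each comparison with scrambled siRNA. The SDHC probe set that gave -0.65 had an SE of 0.28 (limma's unadjusted p = 0.0655, adjusted p = 0.388 over all probe sets).

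In complex III, at brightest probe sets, CYC1 had the largest difference with VEGF-C siRNA and UQCR10 the largest with NRP-2 siRNA. CYC1 encodes cytochrome c1, which passes electrons to cytochrome c. It stood at log2 12.62 and 12.60 for scrambled siRNA, 13.17 and 13.00 for VEGF-C siRNA and 13.00 and 12.83 for NRP-2 siRNA. All 4 arrays of depleted cells exceeded both scrambled arrays, by 0.47 with VEGF-C siRNA (1.39-fold, SE 0.13, limma's unadjusted p = 0.013, adjusted p = 0.251) and by 0.30 with NRP-2 siRNA (1.23-fold, SE 0.13, adjusted p = 0.397). UQCR10, a small subunit beside cytochrome c1, stood at 13.13 and 13.11, 13.20 and 13.36, and 13.73 and 13.33, with 0.16 and 0.41 as differences (adjusted p = 0.683 and 0.388). The core proteins UQCRC1 and UQCRC2 differed by 0.21 and -0.01 for VEGF-C siRNA and by 0.19 and 0.17 for NRP-2 siRNA. UQCRB, a ubiquinone-binding subunit, lay below scrambled at its brightest probe set (14.86 and 14.78, against 14.36 and 14.65, and 14.74 and 14.64; differences -0.31 and -0.13). Its dimmest tested probe set went the other way, from 5.18 and 5.06 for scrambled siRNA. That probe set stood at 5.74 and 6.44 for VEGF-C siRNA and 6.10 and 6.02 for NRP-2 siRNA. Its differences were 0.97 and 0.94 (limma's unadjusted p = 0.0087 and 0.0101, adjusted p = 0.258 and 0.232 over all probe sets). The other 2 UQCRB probe sets sided with the brightest.

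With VEGF-C siRNA the 12 tested genes of complex IV differed from scrambled by -0.14 (COX7B2) to 0.13 (COX8A). COX4I1, COX5A and COX5B, the larger nuclear-encoded subunits, differed by 0.05, -0.03 and 0.01 for VEGF-C siRNA and by 0.23, 0.02 and 0.03 for NRP-2 siRNA. Several subunits of this complex exist as isoforms used in different tissues. The isoforms COX4I2, COX6A2, COX6B2, COX7A1 and COX8C stayed under log2 4: COX7A1, the heart and muscle form, ran from 1.81 to 1.84 and COX4I2, the lung form, from 2.17 to 2.19. Their widely used counterparts COX6A1, COX7A2 and COX8A differed from scrambled by 0.10, -0.05 and 0.13 for VEGF-C siRNA and 0.12, 0.06 and 0.12 for NRP-2 siRNA. COX6B1 stood at 12.75 and 12.69, 12.54 and 12.80, and 13.26 and 12.78, so that its difference with NRP-2 siRNA (0.30) rested on array 1. COX7B2, a form known from testis, was the exception among the restricted isoforms in passing the filter, at 9.58 and 9.61, 9.14 and 9.76, and 10.20 and 9.79. It was highest on the NRP-2 arrays (0.40, SE 0.25, adjusted p = 0.506) and its VEGF-C arrays lay on either side of scrambled.

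Set directly against each other, NRP-2 siRNA lay above VEGF-C siRNA for 43 of 55 subunits, beside 52.7% of all genes. The subunits had a median of 0.115 against 0.018 for all genes. None passed the adjusted threshold (limma, lowest adjusted p = 0.226, for NDUFB6; 0% of all genes passed), and 2 were higher at an unadjusted p under 0.05, NDUFB6 (0.48, adjusted p = 0.226) and SDHA (0.42, adjusted p = 0.229), beside 9.54% of all genes higher and 8.66% lower. The NRP-2 arrays lay above both VEGF-C arrays for 15 subunits and below them for 3, against 24.1% and 22.4% of all genes. Without NRP-2 array 1, 28 of 55 lay above 0 and the median was 0.0.

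The subunits encoded in mitochondrial DNA were counted apart. Of the 13 such genes, 7 were named on the array: ATP6 of complex V, COX1, COX2 and COX3 of complex IV, and ND2, ND4 and ND6 of complex I. All 7 were below scrambled in the mean with VEGF-C siRNA, from -0.69 for COX3 to -0.21 for COX2 (median -0.541), and 0 passed an unadjusted p of 0.05 in limma fitted without the replicate number. COX1 stood at log2 13.35 and 14.19 for scrambled siRNA, 12.81 and 13.47 for VEGF-C siRNA and 13.86 and 14.15 for NRP-2 siRNA, so that its VEGF-C and scrambled arrays overlapped. Within each array number COX1 was lower with VEGF-C than with scrambled siRNA, but the labels do not say that a number pairs arrays. With NRP-2 siRNA the 7 had a median of 0.129. In NRP-2 siRNA minus VEGF-C siRNA all 7 lay above 0, with a median of 0.503. Of these, 0 passed an unadjusted p of 0.05 in limma without the replicate number. Counts with the number as a block are given at the end. In every group all 7 were lower on array 1 than on array 2, by a median of 0.491, 0.656 and 0.433 for scrambled, VEGF-C and NRP-2 siRNA, which is opposite to the order of the nuclear-encoded subunits in the scrambled and NRP-2 groups. These transcripts come from 1 genome and share precursors, so they do not count as 7 separate observations.

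**Figure D4:**
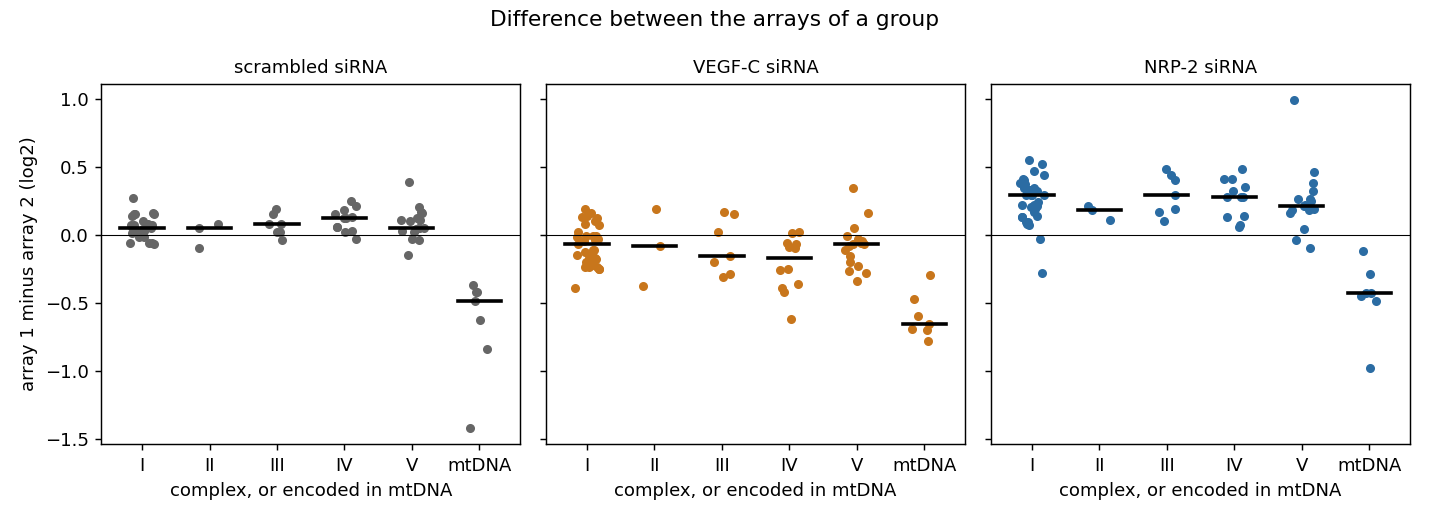
Log2 value on array 1 minus that on array 2 of the same group (vertical axis) for subunit genes by complex, for complex V and for genes encoded in mitochondrial DNA (mtDNA, horizontal axis); each point is a gene and black bars are medians. Complexes I to V lie mostly above 0 with NRP-2 siRNA, and the 7 mitochondrially encoded genes lie below 0 in all 3 panels.

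The nuclear-encoded subunits of ATP synthase resembled complexes I to IV: 17 tested genes had a median of 0.002 for VEGF-C siRNA and 0.128 for NRP-2 siRNA, 15 of 17 were above 0 with NRP-2 siRNA, 0 passed an unadjusted p of 0.05, and 15 of 17 were higher on NRP-2 array 1 than on array 2. Assembly factors outside the NDUFAF family gave 36 tested genes, with medians of 0.041 and 0.134. At an unadjusted p under 0.05, 2 of these were higher and 3 lower with VEGF-C siRNA, and 2 higher and 2 lower with NRP-2 siRNA, beside the 6.95% higher and 7.80% lower, and 6.43% and 6.85%, of all genes. These counts are near those shares. With VEGF-C siRNA the 36 differences ran from -0.768 to 0.626, 21 above 0 and 15 below. With NRP-2 siRNA they ran from -0.444 to 0.464, 22 above 0 and 14 below. The genes below are given as values, and VEGF-C values of the 3 that were lower are not included. LRPPRC, which stabilises mitochondrial mRNAs, stood at log2 12.44 and 12.52 for scrambled siRNA, 12.47 and 12.59 for VEGF-C siRNA and 11.97 and 12.10 for NRP-2 siRNA (-0.44, limma's unadjusted p = 0.0146). TACO1, a translational activator of COX1, went from 10.23 and 10.09 to 10.75 and 10.72 with VEGF-C siRNA (0.58, unadjusted p = 0.0132), and BCS1L, which inserts the iron-sulphur subunit into complex III, from 8.22 and 8.20 to 8.71 and 8.57 with NRP-2 siRNA (0.43, unadjusted p = 0.0151).

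Of 19 genes for cytochrome c, ubiquinone synthesis and other routes of electron entry, 1 was higher and 1 lower at an unadjusted p under 0.05 with VEGF-C siRNA, and 2 were higher with NRP-2 siRNA, against the same shares of all genes. COQ5, a methyltransferase of ubiquinone synthesis, stood at log2 11.48 and 11.55 with scrambled siRNA against 11.92 and 11.85 for VEGF-C siRNA and 11.85 and 11.87 for NRP-2 siRNA, above scrambled on all 4 arrays (0.37 and 0.34, limma's unadjusted p = 0.0211 and 0.0278). Of all genes, 11% lay above scrambled on all 4 arrays. CYCS, cytochrome c itself, differed by 0.31 and 0.18. Over the 19 genes the differences ran from -0.594 to 0.401 with VEGF-C siRNA, 12 above 0 and 7 below. With NRP-2 siRNA they ran from -0.45 to 0.796, 16 above 0 and 3 below. Of 12 tested citric acid cycle genes, 7 lay above 0 and 5 below with VEGF-C siRNA, from -0.429 to 0.407 with a median of 0.041. At an unadjusted p under 0.05 in limma, 0 were higher and 1 lower, beside 6.95% and 7.8% of all genes. The lower one was SUCLA2 (-0.43, limma's unadjusted p = 0.0237), a subunit of succinyl-CoA synthetase. With NRP-2 siRNA 8 of the 12 lay above 0 and 4 below, and 0 had an unadjusted p under 0.05. Of 18 tested regulators of mitochondrial biogenesis, 11 lay above 0 and 7 below with VEGF-C siRNA, from -0.91 to 0.86 with a median of 0.068. In both comparisons with scrambled 0 were lower at an unadjusted p under 0.05, where 7.8% and 6.85% of all genes were. At that threshold 3 were higher for VEGF-C siRNA and 0 for NRP-2 siRNA, where 6.95% and 6.43% of all genes were. TWNK, the helicase that replicates mitochondrial DNA, stood at 7.76 and 7.75 for scrambled siRNA, 8.62 and 8.62 for VEGF-C siRNA and 7.82 and 8.02 for NRP-2 siRNA (0.86 with VEGF-C siRNA, limma's unadjusted p = 0.0007). MYC (0.85, unadjusted p = 0.0125) and GABPB1, a subunit of GABP (0.29, unadjusted p = 0.0472), were the others, and 0 genes of these lists passed the threshold adjusted over all genes.

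The letters of the 3 factors named above were looked for in RefSeq promoter windows (GRCh38.p14) from 250 bases before to 50 after each start site. They were GCGC, any 2 bases and GCGC again for NRF1, CCGGAAG for ETS factors and TCAAGGTCA for ERR, on both strands and with overlaps allowed. Of the 55 subunit genes 49 had a window, and 12 of them held the NRF1 letters (24.5%), 13 the ETS letters (26.5%) and 1 the ERR letters (2.04%). Over all 27305 genes with windows the shares were 9.98%, 12.2% and 0.432%, counting a gene once if any of its windows held the letters. This background was not limited to genes past the log2 4 filter, as the subunits were. The shares are therefore not matched for expression, and whether they differ from those of other expressed genes was not tested. The stretches below end at the base before the start site and are given 5′ to 3′ on the gene's strand, with motif letters in capitals. SDHA is shown because its groups did not overlap and its window repeats the NRF1 letters 4 times. Its scrambled and VEGF-C values came as close as log2 10.8 and 10.79. The letters have a constant spacing of 49 bases from 166 to 19 bases before the start (chr5:218120-218319, plus strand). NDUFA12 (chr12:95003698-95003827, minus strand) holds them once, 116 bases before the start. NDUFA7 (chr19:8321376-8321505, minus strand) and NDUFB6 (chr9:32573160-32573289, minus strand), with NDUFA12 among the largest differences of complex I with NRP-2 siRNA, hold none of the 3 motifs in the stretch shown.
SDHA: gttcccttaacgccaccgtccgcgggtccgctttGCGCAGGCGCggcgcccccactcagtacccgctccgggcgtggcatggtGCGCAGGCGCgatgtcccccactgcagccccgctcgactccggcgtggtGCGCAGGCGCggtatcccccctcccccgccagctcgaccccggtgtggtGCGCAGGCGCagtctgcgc
NDUFA12: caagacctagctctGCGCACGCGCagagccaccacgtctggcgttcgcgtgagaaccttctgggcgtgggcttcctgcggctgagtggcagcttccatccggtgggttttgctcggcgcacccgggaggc
NDUFA7: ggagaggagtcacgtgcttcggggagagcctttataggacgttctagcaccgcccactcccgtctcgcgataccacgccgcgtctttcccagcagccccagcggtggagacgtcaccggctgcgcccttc
NDUFB6: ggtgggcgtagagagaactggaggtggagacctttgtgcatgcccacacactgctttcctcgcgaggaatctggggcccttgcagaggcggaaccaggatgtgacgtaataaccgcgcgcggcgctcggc
The complex I genes with the largest differences with NRP-2 siRNA were thus found both with and without these letters, and a match of letters is no measured binding site.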

How the data were processed

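RNA of 6 samples of PC3 cells was labelled from 6 ug of total RNA for Affymetrix HG-U133 Plus 2.0 arrays, per the labels' protocols. The deposited table holds log2 values for each probe set, and the submitters' processing notes name Partek and GCRMA. Their versions and options are not given in the sources used. GCRMA compresses values near the floor, so differences of dim genes are understated, and no scanner files were used here. Probe sets were named through the platform annotation of 2016. Of 54675 probe sets, 41091 named 1 gene, and those averaging at least log2 4 across all arrays (19946) stayed in, a gene being its brightest probe set (11131 genes). Groups were taken from the labels and compared with limma 3.58.1 under R 4.3.3. The two-sided moderated test used lmFit and eBayes in 1 fit of 6 arrays, with 3 residual degrees of freedom. P-values were adjusted by Benjamini-Hochberg over all genes. The procedure was also run on simulated data with differences far larger than any found for the members. That run does not show whether differences of the members' size would be detected. The number of arrays limits the precision. Values are log2 differences of means with standard errors (SE).

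The members and lists were chosen with earlier results of these data known, so they are described by counts and medians beside all genes, without a test over the list. Named genes were core subunits, up to 3 genes per complex and direction at an unadjusted p under 0.05, isoforms of complex IV, genes on opposite sides of scrambled in the 2 depletions and genes whose probe sets disagreed; NDUFA5, NDUFA12, UQCR10, NDUFAF4 and list genes were added after their values were seen. Alternatives covered the filter, the choice of probe set, scaling, moderation of the spread, the arrays fitted, the replicate number as a block and leaving out each array.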

Additional observations from a re-analysis of the deposited data

Results flagged for a closer look

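For 4 genes both arrays of one depletion lay above both scrambled arrays and both of the other lay below them. In NRP-2 siRNA minus VEGF-C siRNA, SDHA differed by 0.417 (limma's unadjusted p = 0.0305, adjusted p = 0.229), NDUFV2 by 0.314 (unadjusted p = 0.0813, adjusted p = 0.338), NDUFAF7 by 0.558 (unadjusted p = 0.0192, adjusted p = 0.197) and NDUFS6 by -0.267 (unadjusted p = 0.0694, adjusted p = 0.318). None of these differences passed the threshold adjusted over all genes. Of all 11131 genes, 3.83% had VEGF-C siRNA above and NRP-2 siRNA below scrambled and 3.79% the reverse, beside 1 and 2 of the 55 subunits.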

How the results depend on the processing

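No gene of the chain passed an adjusted p of 0.05 in any comparison under any alternative. The count of the 64 tested member genes at an unadjusted p under 0.05 was small and moved. With no filter it covered all 72, and 2114, 1904 and 2506 of 19775 genes passed in the comparisons below. For VEGF-C siRNA against scrambled it was 2, and became 4 with no filter on low values, with an intensity trend and with only the arrays of the groups compared, 1 with arrays shifted to equal medians, and 0 to 4 without single arrays. For NRP-2 siRNA against scrambled it was 3, and became 7 with no filter, 6 with the trend, 1 with only those arrays, and 0 to 13 without single arrays (13 without NRP-2 array 2, where 2706 of all 11131 genes passed, and 0 without NRP-2 array 1 or scrambled array 2, where 851 and 828 did). For NRP-2 against VEGF-C siRNA it was 4, and became 12 with no filter, 7 with the trend, 1 with only those arrays, and 1 to 11 without single arrays (11 without NRP-2 array 2, where 2396 of all genes passed). The cause of these moves was not tested.

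Under other filters, scalings and probe set choices, medians moved by less than the spread between arrays. Leaving out single arrays gave these medians for all subunits, complexes I to IV and assembly factors, in that order. For VEGF-C siRNA they were -0.034 to 0.068, -0.004 to 0.046, -0.198 to -0.084, 0.0 to 0.175, -0.095 to 0.105 and 0.020 to 0.139. For NRP-2 siRNA they were 0.012 to 0.235, 0.012 to 0.235, 0.023 to 0.139, -0.048 to 0.386, 0.018 to 0.194 and -0.033 to 0.098. For NRP-2 against VEGF-C siRNA they were 0.0 to 0.230, -0.002 to 0.254, 0.145 to 0.295, -0.008 to 0.230, -0.005 to 0.175 and -0.221 to -0.053. The count of subunits above 0, recomputed likewise after seeing the data, ranged from 22 to 37, 30 to 48 and 28 to 49 for these comparisons. Averaging the probe sets of a gene turned UQCRB to 0.046 with VEGF-C siRNA and COX4I1 to -0.128 with NRP-2 siRNA. These 2 are the sign changes among named genes that differed by at least 1.5 SE. With no such limit, 48 of 1134 values of named genes and 14 of 264 medians had the other sign than the main value. The intensity trend, the replicate block and fitting only the groups compared leave a difference of means as it is. So does leaving out an array outside the comparison. Such values cannot change sign, and they enlarge both totals. Of 1509 values, 80 moved by more than the spread between arrays (for named genes under 1.5 SE, 1 SE) or, for counts, by over 1.5 times. Larger differences, such as UQCRB and COX4I1 above, are not in the 80.

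With the replicate number as a block, the count of member genes was 1 for VEGF-C siRNA and 4 and 4 for the other comparisons. Of all genes, 17.9%, 17.2% and 20.4% had an unadjusted p under 0.05 in that limma fit. The block, tried on the mitochondrially encoded genes after seeing the data, left their differences as they were and moved the count at an unadjusted p under 0.05 from 0 to 5 of 7 for VEGF-C siRNA against scrambled (17.9% of all genes) and from 0 to 7 of 7 for NRP-2 against VEGF-C siRNA (20.4%), and left it at 0 for NRP-2 siRNA against scrambled; the lowest adjusted p in limma was 0.113. Deviations of same-numbered arrays correlated at 0.112, 0.579 and 0.119 over genes (scrambled with VEGF-C, scrambled with NRP-2, VEGF-C with NRP-2), but the labels do not say that a number marks a shared culture or day.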
